A study of Mus musculus with 40 samples.

Results

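Cadherins are calcium-dependent adhesion receptors, and catenins couple their cytoplasmic tails to the actin cytoskeleton. The 9 genes described here are 5 cadherins (Cdh2, Cdh4, Cdh10, Cdh11 and Cdh13), 3 catenins (Ctnna1, Ctnnb1 and Ctnnd1) and Tjp1, a scaffold of tight junctions, out of 19057 genes with a probe of their own. They were taken as every probe that carries 1 of these symbols in the platform annotation, which gave 23 of the 45260 usable probes. Of the 23, 17 passed the filter on dim probes (detection p under 0.01, 3 arrays or more), among 21740 probes that passed in all. Each of the 9 genes kept at least 1 probe. The 6 probes left out were 1 of Cdh10 (ILMN_1246665), 2 of Cdh11 (ILMN_2751663 and ILMN_1240529) and 3 of Ctnnd1 (ILMN_2673584, ILMN_2673589 and ILMN_1245767). Each was detected on at most 2 arrays, with levels of 4.10 to 4.96 on the log2 scale.

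Transcript levels were measured on Illumina MouseWG-6 arrays in 40 samples of primary mouse neural stem cells, isolated from E13.5 telencephalon and grown on laminin in 20 ng/ml of EGF and of FGF-2. One set of cultures received 250 nM 4-hydroxytamoxifen (4-OHT) and the other its vehicle, for 6, 12, 18, 24, 48, 96 or 144 h. All cultures, vehicle included, were of a 129/Svj;C57Bl/6 hybrid strain and shared the same alleles: Id1 and Id2 floxed, Id3 null on both copies, and Rosa-Cre-ER, a 4-OHT-dependent recombinase driven from a locus that is active in most cell types. 4-OHT switches the recombinase on, so the comparison asks what follows when Id1 and Id2 are deleted in cells that already lack Id3. No group has the recombinase without floxed alleles, so effects of the deletion, the active recombinase and 4-OHT itself cannot be told apart. The 14 groups held arrays lettered A, B and C, and at 144 h only A and C. Separate cultures or animals are not stated for the letters, so p-values measure a spread that may be technical. No wild-type cells are among the groups.

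At adherens junctions the tails of classical cadherins bind the products of Ctnnb1 and Ctnnd1, and the product of Ctnna1 links that complex to actin filaments. Neural stem cells of the embryonic telencephalon hold on to each other and to the ventricular surface through such junctions, and the product of Ctnnb1 also acts in the nucleus as the coactivator of Wnt signalling. Id proteins bind basic helix-loop-helix factors and keep them from their DNA sites, the E-boxes.

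Id2, a deleted gene, differed by -0.56 at 6 h, -2.01 at 18 h and -5.27 at 144 h (4-OHT minus vehicle, log2 scale, probe ILMN_1228557), with an adjusted p of 2.5e-14 at 144 h. Where that probe lies relative to the floxed part was not used. Levels are log2 values after background correction and quantile normalization, and a higher level of 1 probe than of another is not read as more RNA. The stronger probe of a gene is the one with the higher mean level. On 39 arrays between 15884 and 19186 probes were detected, while 1 array, vehicle C at 6 h, had 12947. The labels number the arrays in 3 runs, here called series, without calling them batches: replicates A and B at 18 to 144 h, replicate C at 18 to 144 h, and all arrays at 6 and 12 h. In these bulk samples fewer cells of a type and less RNA per cell cannot be told apart. Among stem cell markers Sox2, Nes, Vim, Fabp7, Hes1 and Slc1a3 were detected on all 40 arrays, Pax6 on 5 and Msi1 on 0.

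Over the 17 probes and 7 times, 2 of 119 comparisons of 4-OHT with vehicle were called at an adjusted p under 0.05 (limma, Benjamini-Hochberg over all 21740 probes). Of all probes 4.5% were called at 96 h, 6.61% at 144 h and 0% to 0.952% at the earlier times. Cdh4 was lower at 96 h, by 0.86 on the log2 scale. Ctnna1 was lower at 144 h, by 0.64. Ctnnb1 and Tjp1 were called at no time, and the widest difference of the main Ctnnb1 probe over the 7 times was 0.19. In 94 of the 119 comparisons the 95% interval of the difference lay within 2-fold. The 119 include comparisons with a group undetected on every array, which have only a bound, and probes near background. The probes detected on all 40 arrays were those of Cdh4, Cdh13, Ctnna1 and Tjp1, 2 of the 4 Ctnnb1 probes and the tested Ctnnd1 probe.

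Cdh4 (chr2:179442423-179899377, GRCm38.p6, as for all positions here) encodes R-cadherin, a classical cadherin first studied in the retina. The positions of the probes within the genes were not used. On the stronger of its 2 probes (ILMN_1260036) the levels at 96 h were 10.69, 10.62 and 9.90 with 4-OHT, against 11.46, 11.51 and 10.81 with vehicle (A, B and C). All 4-OHT arrays lay below all vehicle arrays, and C was the lowest of both agents. The means were 10.40 ± 0.44 with 4-OHT and 11.26 ± 0.39 with vehicle (SD, n = 3 each), a difference of -0.86 ± 0.24 (SE), or 1.81-fold lower (limma, adjusted p = 0.0324). Of all probes tested at 96 h 4.5% were called and 2.1% called lower, against 1 of the 17 probes here. The weaker Cdh4 probe (ILMN_1255939) read 6.85, 6.63 and 6.82 with 4-OHT and 7.43, 7.24 and 7.97 with vehicle at 96 h. Its groups did not overlap either, and its difference of -0.78 ± 0.25 (SE) had an adjusted p of 0.0701. The platform annotation names a transcript for this weaker probe and none for the stronger one.

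At the other times neither Cdh4 probe passed the test. At 6 and 12 h the differences of the stronger probe were 0.26 and -0.01, and at 18, 24 and 48 h they were -0.32, -0.27 and -0.38. None of these 5 was called. At 48 h it read 10.58, 10.74 and 10.38 with 4-OHT and 11.21, 11.16 and 10.47 with vehicle, where A and B were below their own vehicle arrays by more than C. The groups overlapped, since vehicle C lay below 4-OHT A and B. At 144 h it read 10.33 and 10.62 with 4-OHT and 9.70 and 10.92 with vehicle (A and C). The groups overlapped, since the vehicle array of A was the lowest of all 40 arrays, and the difference was 0.17 (adjusted p = 0.907). At 144 h the weaker probe had a difference of 0.04.

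**Figure D1:**
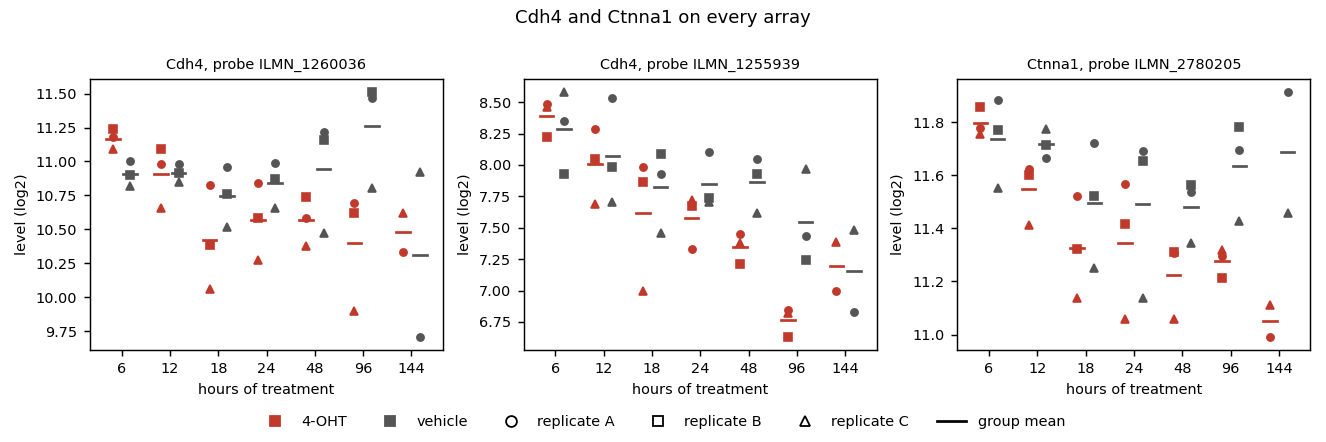
Levels (log2) of the 2 Cdh4 probes and the Ctnna1 probe on every array by hours of treatment, with 4-OHT in red left of vehicle in grey, marker shapes for replicates A, B and C, and bars for group means; each panel has its own level axis. At 96 h all 4-OHT arrays lie below all vehicle arrays in the 3 panels, and at 144 h in the Ctnna1 panel.

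The letters were checked for pairing over all probes. At 18, 24, 48 and 96 h arrays of the same letter deviated together, with correlations of 0.367 to 0.783, so the pairs were also fitted as a replicate block. At these times letter C is also its own series of array numbers, so these correlations cannot tell a pairing by letter from a shift between series. A and B share a series there, and their pairing was not tested apart from C. At 6 and 12 h, where all letters share 1 series, the correlations ran from -0.143 to 0.421. With the block, 4 of the 17 probes were called at 96 h, all lower, where 11.7% of all probes were called and 6.32% called lower. They were both Cdh4 probes (adjusted p = 6.31e-05 and 0.00172), Cdh10 (0.0145) and Ctnna1 (0.0295). The stronger Cdh4 probe differed by -0.77 in pair A, -0.90 in pair B and -0.91 in pair C. All 3 pairs therefore lay on the same side, with a narrow spread. The weaker probe differed by -0.58, -0.61 and -1.14.

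Without the block the Cdh4 call at 96 h was lost without vehicle replicate A (-0.76, adjusted p = 0.163), vehicle replicate B (-0.73, adjusted p = 0.181) or 4-OHT replicate C (-0.61, adjusted p = 0.23), and under median scaling (-0.79, adjusted p = 0.856), without the filter on dim probes (adjusted p = 0.0624) and with the 96 h arrays alone (adjusted p = 0.173). From the authors' deposited log2 values it was kept (-0.85, adjusted p = 0.0321).

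Ctnna1 (chr18:35118902-35254776) encodes the alpha-catenin that ties the cadherin and beta-catenin complex to actin, and 1 probe measured it (ILMN_2780205). At 144 h it read 10.99 and 11.11 with 4-OHT and 11.91 and 11.46 with vehicle (A and C). Both 4-OHT arrays lay below both vehicle arrays, by 0.92 in pair A and 0.35 in pair C. The means were 11.05 ± 0.09 with 4-OHT and 11.69 ± 0.32 with vehicle (SD, n = 2 each), a difference of -0.64 ± 0.18 (SE), or 1.55-fold lower (limma, adjusted p = 0.03). At 144 h 6.61% of all probes were called and 3.2% called lower, against 1 of 17 here.

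Ctnna1 had smaller differences of the same sign at every time from 12 h on. They were -0.17, -0.17, -0.15, -0.26 and -0.36 at 12, 18, 24, 48 and 96 h, with 0.06 at 6 h, and none of these was called. At 96 h the levels were 11.30, 11.21 and 11.32 with 4-OHT and 11.70, 11.78 and 11.43 with vehicle, again without overlap (adjusted p = 0.237). The mean difference over 96 and 144 h was -0.50, against -0.16 over 18 and 24 h. That change in the difference was -0.34 ± 0.16 (SE, adjusted p = 0.39). The call at 144 h was lost without 4-OHT replicate A (-0.58, adjusted p = 0.179), vehicle replicate A (-0.41, adjusted p = 0.319) or 4-OHT replicate C (-0.70, adjusted p = 0.0666), each of which leaves 1 array in a group, and under median scaling (-0.79, adjusted p = 0.767). It was also lost without the filter on dim probes (adjusted p = 0.0583), with array weights (adjusted p = 0.321) and with the 144 h arrays alone (adjusted p = 0.542).

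Cdh13 (chr8:118140017-119324929) encodes T-cadherin, which is held in the membrane by a lipid anchor and has no tail to bind catenins. Its 3 probes, and none of the other 14, rose in vehicle cultures between 18 and 144 h. On the strongest (ILMN_2592321) vehicle cultures read 9.61 and 9.30 at 144 h (A and C), against 7.69, 7.75 and 8.85 at 18 h (A, B and C). The later arrays were all higher, and at 18 h replicate C stood well above A and B. The difference, 144 h minus 18 h, was 1.36 ± 0.37 (SE), or 2.56-fold (limma, adjusted p = 0.0117). The other probes gave 1.40 (ILMN_2423843, adjusted p = 0.0296) and 1.35 (ILMN_2659503, adjusted p = 0.0309). So 3 of the 17 probes rose over that interval, all of Cdh13, where 14.9% of all probes were called and 7.24% called higher.

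The size of this rise differed between letters A and C, which at 144 h are 1 vehicle array in each series of array numbers. That contrast between series was not tested. On the strongest Cdh13 probe vehicle rose by 1.92 within replicate A and by 0.45 within replicate C, on the second by 2.21 and 0.26, and on the third by 1.73 and 1.10. From 18 to 96 h vehicle replicate C changed by -0.25, -0.60 and 1.05 on the 3 probes, while A and B rose on each. With the series as a term in the fit the first probe gave 1.25 (adjusted p = 0.00123). The vehicle means of that probe were 8.79, 8.52, 8.10, 8.03, 7.88, 8.62 and 9.45 from 6 to 144 h, lowest at 48 h, with the first 2 times in a series of their own. Leaving out vehicle replicate A or B at 18 h, or vehicle replicate A at 144 h, ended the call of all 3 probes, with adjusted p from 0.0628 to 0.261, and leaving out replicate C at 18 or 144 h ended that of 1 probe each. Median scaling and testing without the filter each ended the call of 2 probes, and array weights that of 1. At 96 h the same contrast with 18 h called 0 of the 17 probes (6.09% of all probes), and 2 of 17 had an unadjusted p under 0.05, where 21.6% of all probes had.

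Between agents Cdh13 was not called at 144 h, though its 4-OHT means lay below its vehicle means on the 3 probes. The strongest probe read 8.51 and 8.66 with 4-OHT and 9.61 and 9.30 with vehicle at 144 h. The second read 6.97 and 7.16 with 4-OHT and 8.11 and 7.78 with vehicle, and the third 6.58 and 6.72 with 4-OHT and 7.72 and 6.98 with vehicle. None of the 3 pairs of groups overlapped. The differences were -0.86, -0.88 and -0.70, with adjusted p of 0.27, 0.4 and 0.539. With the replicate block 3 of the 17 probes were called at 144 h, all lower: the first and second of Cdh13 (adjusted p = 0.00191 and 0.0123) and Ctnna1 (0.00129). The block called 16.3% of all probes at that time and 8.52% lower. At 144 h the groups of 7 of the 17 probes did not overlap, 5 with 4-OHT lower, where 34.7% of all probes did not overlap and 17.2% had 4-OHT lower. Each group had 2 arrays at that time. From 6 to 96 h the strongest probe differed by -0.20 to 0.13.

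**Figure D2:**
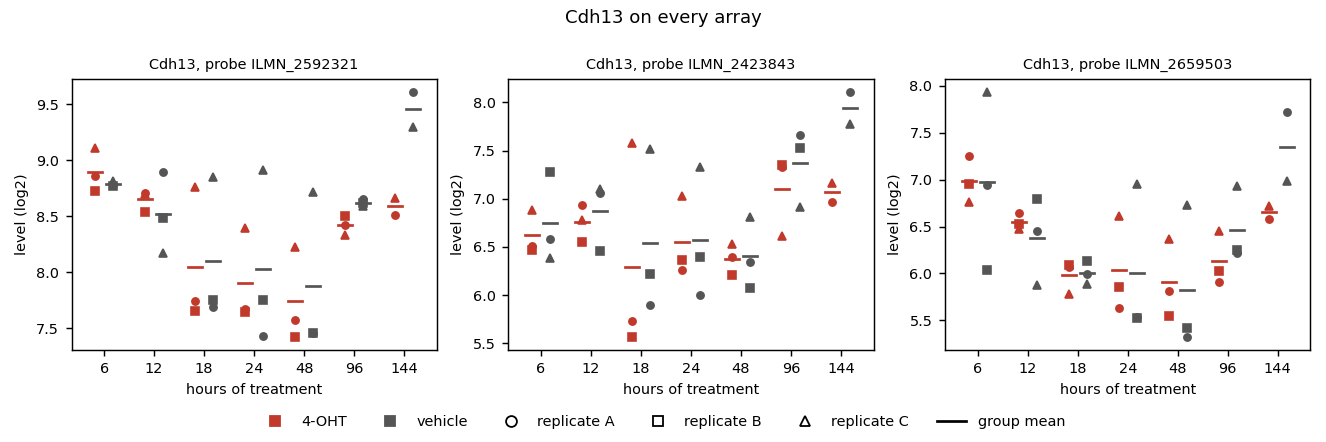
Levels (log2) of the 3 Cdh13 probes on every array by hours of treatment, with 4-OHT in red left of vehicle in grey, marker shapes for replicates and bars for group means; each panel has its own level axis. Vehicle is highest at 144 h on the first and second probes, and at 144 h both 4-OHT arrays lie below both vehicle arrays on all 3.

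Cdh2, Cdh10 and Cdh11 were measured near the background of the arrays, so their differences are less certain. Cdh2 (chr18:16588877-16809246) encodes N-cadherin, the main cadherin of neural progenitors. Its stronger probe (ILMN_2605503) was detected on 34 arrays, with a lowest, median and highest level of 4.28, 5.36 and 6.22 over the 20 4-OHT arrays and 4.60, 5.51 and 5.88 over the 20 vehicle arrays. The 2 ranges overlapped almost wholly. Its differences ran from -0.58 at 12 h to 0.29 at 48 h, and its smallest adjusted p was 0.899. The second Cdh2 probe was detected on 8 arrays, with differences of -0.12 to 0.19.

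Cdh10 (chr15:18818869-19016206), a type II cadherin of the nervous system, had its stronger probe (ILMN_2745139) detected on 9 of 20 4-OHT arrays and 15 of 20 vehicle arrays. At 96 h it read 4.36, 4.93 and 5.09 with 4-OHT and 5.35, 5.32 and 5.73 with vehicle. The groups did not overlap, and the 4-OHT array of A was not detected. The difference was -0.67 ± 0.30 (SE, adjusted p = 0.283), and it was called lower at 96 h with the replicate block, as given above. Its pairs differed by -0.99, -0.39 and -0.64. At the 6 times when neither group was undetected on every array its difference was negative, from -0.06 at 6 h to -0.67 at 96 h. The second Cdh10 probe (ILMN_2697571) differed by -0.30 at 96 h (adjusted p = 0.61), also without overlap.

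Cdh11 (chr8:102632095-102785493), a type II cadherin of mesenchymal cells, was detected on 4 arrays by its 1 tested probe, 2 with 4-OHT at 24 h and 2 with vehicle, at 96 and 144 h. In 8 of the 14 groups its detection p was 0.05 or more on every array. At 6 of the 7 times that held for at least 1 agent, so no difference is given there. At 48 h the difference was -0.02, and Cdh11 was called at no time.

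**Figure D3:**
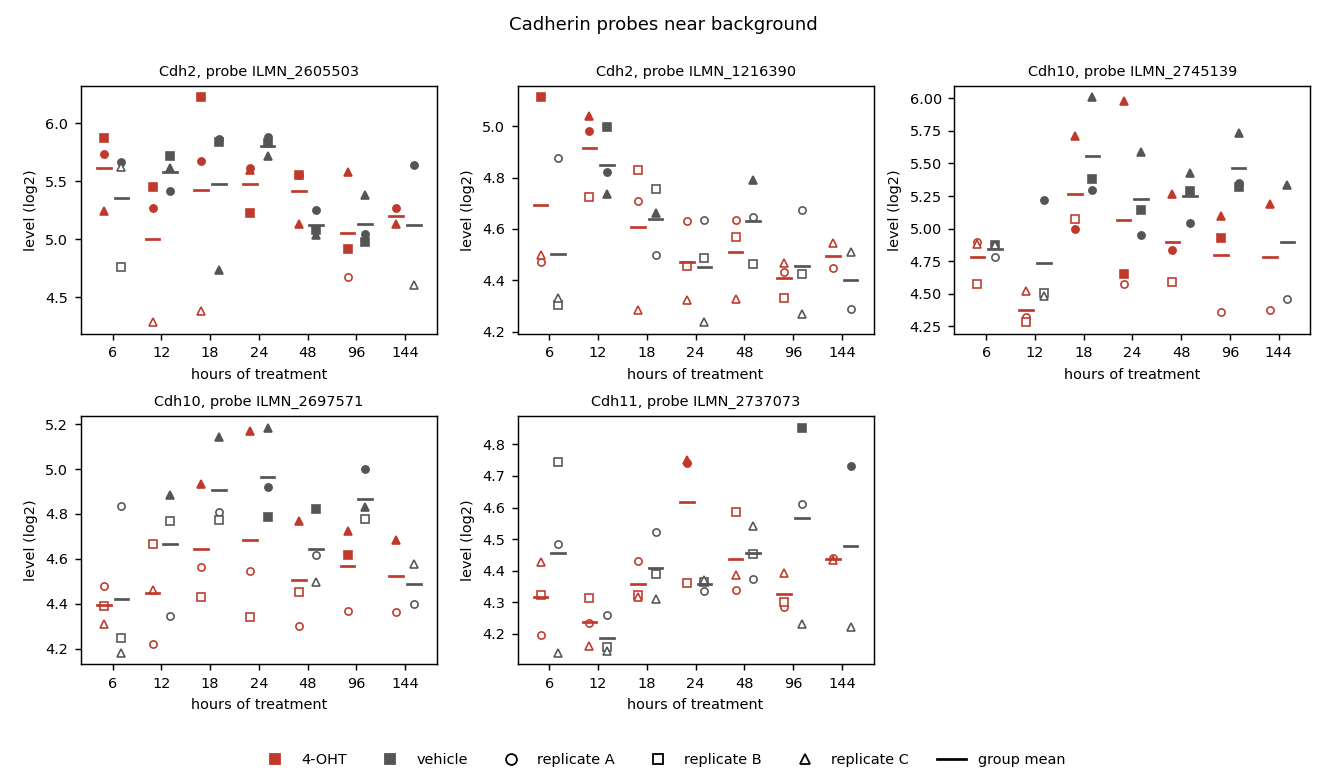
Levels (log2) of the 5 tested probes of Cdh2, Cdh10 and Cdh11 on every array by hours of treatment, with 4-OHT in red left of vehicle in grey; open markers are arrays with a detection p of 0.01 or more, bars are group means, and each panel has its own level axis. Most arrays of Cdh11 and of the second Cdh2 probe are open, and at 96 h Cdh10 lies lower with 4-OHT on both probes.

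Ctnnb1 (chr9:120933400-120960507) encodes beta-catenin, and none of its 4 probes was called at any time. ILMN_2994460 had a lowest, median and highest level of 11.49, 11.94 and 12.21 over the 4-OHT arrays and 11.35, 11.86 and 12.12 over the vehicle arrays. At 96 h it read 11.65, 11.69 and 11.97 with 4-OHT and 11.75, 12.06 and 11.70 with vehicle, with overlap. The difference was -0.07 at 96 h, with a 95% interval of -0.34 to 0.20, and 0.02 at 144 h, with an interval of -0.31 to 0.35. The second strong probe (ILMN_2696575) differed by -0.00 at 96 h (-0.34 to 0.33) and 0.03 at 144 h (-0.38 to 0.44). Of the weak probes, ILMN_1255869 was detected on 37 arrays and had positive differences at all 7 times, 0.06 to 0.73, none called. ILMN_2616556 was detected on 5 arrays. Its highest level, 7.16, was on the dim vehicle array at 6 h, and its difference of -0.71 at 6 h (adjusted p = 0.748) includes that array.

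Promoter windows of 250 bases before an annotated start (RefSeq, build GRCm38.p6) were used for 4 of the 9 genes, 6 windows in all. That 4 counts the genes used here, and need not be the number with such a window in RefSeq. The 6 windows were searched for the E-box letters CANNTG, which read the same on both strands. These letters were chosen because Id proteins act on factors that bind E-boxes. Cdh4 and Ctnna1, the genes called without the block, have no window printed here, so the windows say nothing of them. The window with the most of these letters and 1 with none are shown as examples, not as a comparison. Cdh10 held 4 in its window at chr15:18820079-18820328 (plus strand), which lies inside the annotated span of the gene, and Ctnnb1 held 0 in its first window at chr9:120933150-120933399 (plus strand). Capitals mark the E-box letters.
Cdh10: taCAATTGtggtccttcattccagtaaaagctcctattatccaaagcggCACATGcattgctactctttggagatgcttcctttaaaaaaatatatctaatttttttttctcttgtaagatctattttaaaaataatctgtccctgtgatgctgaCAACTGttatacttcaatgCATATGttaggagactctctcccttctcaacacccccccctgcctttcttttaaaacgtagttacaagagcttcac
Ctnnb1: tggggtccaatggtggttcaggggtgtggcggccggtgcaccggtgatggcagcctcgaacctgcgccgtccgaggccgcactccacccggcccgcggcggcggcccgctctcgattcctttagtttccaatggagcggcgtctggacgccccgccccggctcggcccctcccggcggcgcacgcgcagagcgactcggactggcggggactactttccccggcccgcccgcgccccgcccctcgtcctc
The 2 windows of Ctnnd1, which the F test with the replicate block called, held 1 and 0, the Tjp1 window 0 and the second Ctnnb1 window 0. Of all 32841 windows of that length, with no chromosome left out, 66.2% held at least 1, with a mean of 1.16. The subtypes CAGCTG and CAGGTG, which all CANNTG counts include, were in 0 of the 6 windows and in 13% and 17.2% of all windows, the second counted on both strands.

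Ctnnd1 (chr2:84587096-84658977) encodes the catenin that binds the cadherin tail next to the membrane and keeps cadherins at the cell surface. Its 1 tested probe (ILMN_2610460) showed its widest differences at the 2 earliest times. At 6 h it read 8.70, 8.36 and 8.56 with 4-OHT and 8.73, 9.46 and 9.48 with vehicle, and at 12 h 8.48, 8.31 and 8.27 with 4-OHT and 9.49, 8.37 and 9.54 with vehicle. The groups did not overlap at 6 h, by a margin of 0.03 between the closest arrays, and overlapped at 12 h. The differences were -0.68 ± 0.29 and -0.78 ± 0.29 (SE, adjusted p = 0.699 and 0.952). At 6 h 0% and at 12 h 0% of all probes were called, and 0 of the 17. From 18 to 96 h Ctnnd1 differed by -0.16 to 0.03, and at 144 h by -0.39. Under array weights the 12 h difference was called. Under median scaling the 6 h difference was 0.00, and 1 of the high vehicle arrays at 6 h, C, is the dim array; without it the difference was -0.55 and without vehicle B -0.56.

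Tjp1 (chr7:65296165-65527850) encodes the tight junction scaffold that ties membrane proteins to actin, and that also binds alpha-catenin. Its probe (ILMN_2706587) had a lowest, median and highest level of 7.36, 7.85 and 8.44 with 4-OHT and 6.94, 7.72 and 8.65 with vehicle. Its highest and lowest vehicle arrays lay outside the 4-OHT range. At 96 h it read 7.95, 7.90 and 7.83 with 4-OHT and 8.09, 8.65 and 7.68 with vehicle, a difference of -0.25 with a 95% interval of -0.74 to 0.25. Over the 7 times its differences ran from -0.25 to 0.32 and the smallest adjusted p was 0.846.

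**Figure D4:**
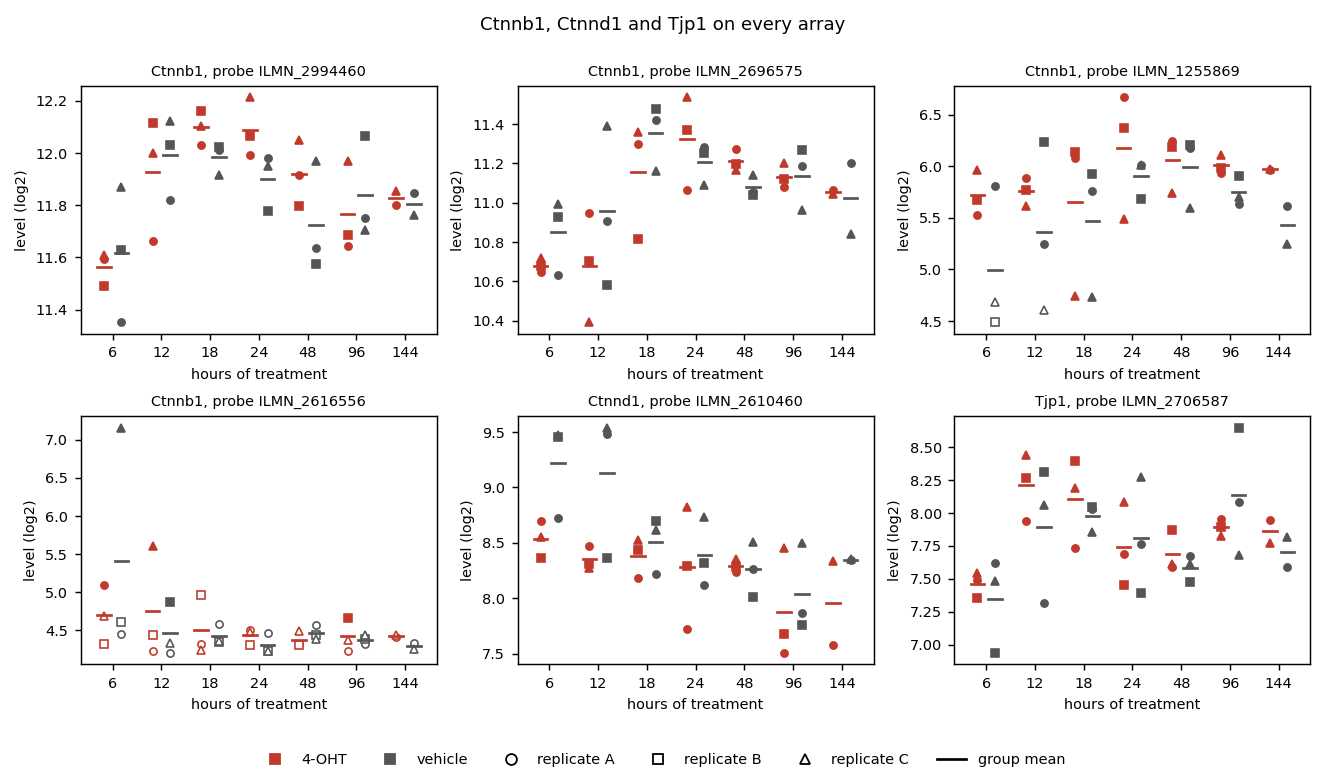
Levels (log2) of the tested probes of Ctnnb1, Ctnnd1 and Tjp1 on every array by hours of treatment, with 4-OHT in red left of vehicle in grey; open markers are arrays with a detection p of 0.01 or more, bars are group means, and each panel has its own level axis. Ctnnd1 shows 2 high vehicle arrays at 6 h and 2 at 12 h, and the strong Ctnnb1 probes overlap between agents at 96 and 144 h.

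Set side by side at 96 h, 14 of the 17 probes had no group undetected on every array, and 13 of these 14 had a negative difference. Of the main probes (the strongest tested probe of each gene) that left 8, without Cdh11, of which 8 were negative, with a median of -0.23 against 0.01 over all probes tested. Some of the 14 are probes of the same gene, and all were read on the same arrays. The share of negative differences over all probes was not counted, and these genes were chosen with earlier results of these data known. The groups of 7 of the 17 did not overlap, 6 with 4-OHT lower, where 19.1% of all probes did not overlap and 9.29% had 4-OHT lower. At 144 h 6 of the 15 probes so measured were negative, with a median of -0.05 over 8 main probes. At 48 h 0 of the 17 were called (0.952% of all probes), at 24 h 0 (0.248%) and at 18 h 0 (0.0736%), by limma. Probes with an unadjusted p under 0.05 numbered 1 of 17 after 6 h (6.82% of all probes), 1 after 12 h (5.08%), 0 after 18 h (2.95%) and 0 after 24 h (3.79%). They numbered 1 after 48 h (6.24%), 4 after 96 h (13.4%) and 2 after 144 h (16.7%). Groups did not overlap in 2 of the 17 after 6 h of treatment (11.1% of all probes), in 1 after 12 h (9.9%), in 1 after 18 h (7.22%), in 2 after 24 h (11%) and in 3 after 48 h (14.9%).

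**Figure D5:**
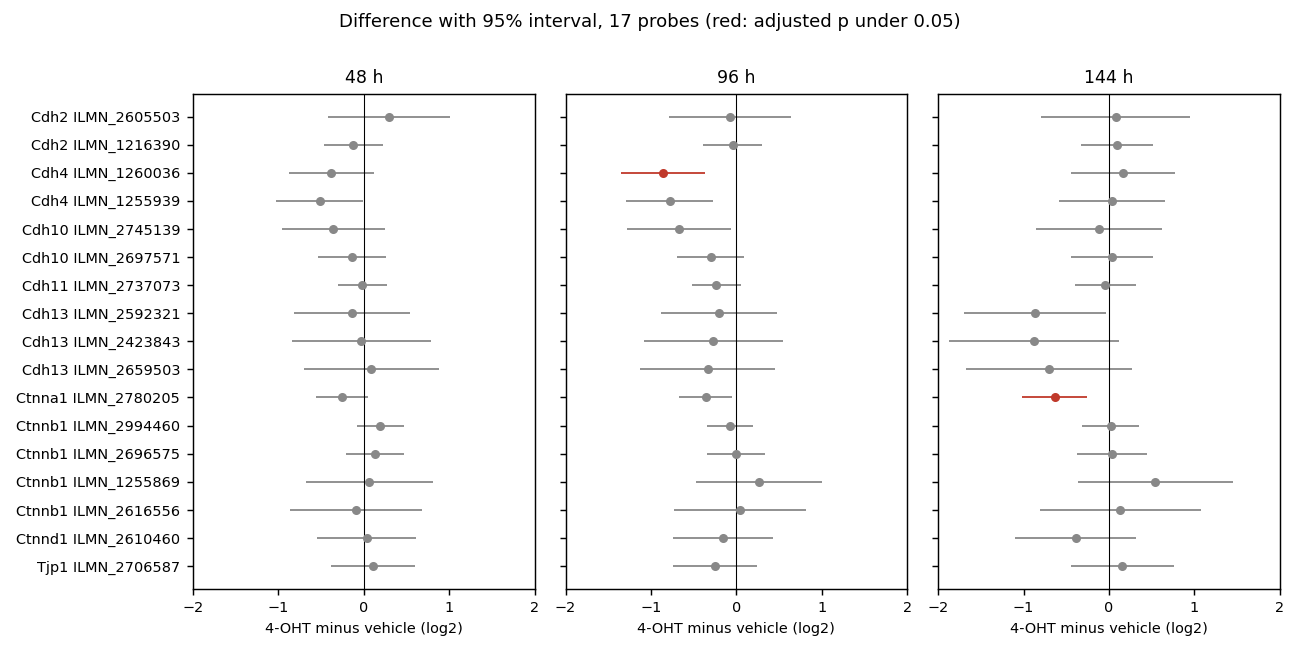
Difference in level, 4-OHT minus vehicle (log2), with its 95% interval for the 17 tested probes at 48, 96 and 144 h; red marks an adjusted p under 0.05. Cdh4 ILMN_1260036 at 96 h and Ctnna1 at 144 h are the 2 in red. At 96 h 13 of the 14 points with no undetected group lie below 0, a share not counted over all probes. Cdh11 at 96 and 144 h has an undetected 4-OHT group.

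An F test over the 7 differences together called 0 of the 17 probes (6.05% of all probes). A second F test, of unequal differences among the times, called 0 (1.81%). The late difference (96 and 144 h) less the early one (18 and 24 h) was called in 0 (2.92%), and 1 probe, that of Ctnna1, had an unadjusted p under 0.05, where 11.6% of all probes had. With the replicate block the first F test called 6 of the 17 (17.8% of all probes): both Cdh4 probes, Cdh10 and Cdh13 with 1 probe each (ILMN_2745139 and ILMN_2592321), Ctnna1 and Ctnnd1. The block's second F test called 1 (8.15%), Cdh4 (ILMN_1260036, adjusted p = 0.00376). Over vehicle cultures from 18 to 144 h the F test called 2 of 17, both of Cdh13 (14% of all probes).

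Within 4-OHT cultures 1 of the 17 probes changed between 18 and 96 h, the weaker Cdh4 probe, which fell (10.3% of all probes were called, 4.52% lower). It read 6.85, 6.63 and 6.82 at 96 h and 7.98, 7.86 and 7.0 at 18 h, without overlap, and replicate C at 18 h lay close to the later arrays. The difference, 96 h minus 18 h, was -0.85 ± 0.25 (SE, limma, adjusted p = 0.0272). By letter it was -1.13, -1.24 and -0.17. Leaving out 4-OHT replicate A or B at 18 h or at 96 h ended the call (adjusted p = 0.0911 to 0.16), as did median scaling (-0.60, adjusted p = 0.583). The stronger Cdh4 probe differed by -0.02 over that interval with 4-OHT and by 0.52 with vehicle (adjusted p = 0.97 and 0.208), so the 2 Cdh4 probes disagreed on change with time.

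Markers of other cell types moved over the same hours. At 96 h 2.41% and at 144 h 3.41% of all probes were called higher. Of 10 measured oligodendrocyte lineage genes 7 rose with 4-OHT at 96 h and 7 at 144 h, and 0 fell. Their summed level at 96 h was 21368 to 34037 with 4-OHT and 13304 to 16348 with vehicle, in linear intensity after correction, and at 144 h it was 31076 to 44393 with 4-OHT and 13030 to 16242 with vehicle. Stem cell markers summed to 13302 to 15826 with 4-OHT and 21299 to 24126 with vehicle at 96 h, and of 9 tested only Slc1a3, a glutamate transporter of radial glia, was called (-1.21 at 96 h). At 144 h they summed to 12429 to 15866 with 4-OHT and 23784 to 24290 with vehicle. Slc1a3 carried most of these gaps: without it the sums were 7154 to 10983 with 4-OHT and 9215 to 10762 with vehicle at 96 h, which overlap, and 7207 to 9112 with 4-OHT and 9956 to 11451 with vehicle at 144 h. The median difference over the 9 genes was -0.26 at 96 h and -0.02 at 144 h. Of 5 neuronal markers 0 were called at 96 h and 3 rose at 144 h (Dcx, Syt1 and Map2), with summed levels at 144 h of 4664 to 6938 with 4-OHT and 3312 to 3458 with vehicle. Of 5 astrocyte markers S100b rose and Aldoc fell at 96 h, and S100b rose and Gfap fell at 144 h. Of 2 tested ependymal and choroid plexus markers Otx2 fell, by 1.54 at 96 h, with summed levels of 165 to 229 with 4-OHT and 483 to 679 with vehicle. Among 7 endothelial markers Emcn, detected on 25 arrays, was lower at 96 h. Tek and Esam were detected on 10 arrays each, and Pecam1, Cdh5, Kdr and Cldn5 on 0. Of microglial markers P2ry12 was detected on 22 arrays, and Ptprc and Itgam on 0. Of fibroblast markers Col1a1 and Col3a1 were detected on 1 array each, and Dcn, Lum and Pdgfrb on 0. The part of these cell type markers in the Cdh4 and Ctnna1 differences was not tested.

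Lists of related genes were counted in the same fit. Of all probes 2.41% were called higher and 2.1% lower at 96 h, and 3.41% higher and 3.2% lower at 144 h. Of 14 other classical cadherins 4 were tested, and 1 was lower at 96 h and at 144 h. It was Cdh22, a type II cadherin of brain, at 6.18 ± 0.24 with 4-OHT and 8.0 ± 0.15 with vehicle at 96 h (SD, n = 3 each), a difference of -1.82 ± 0.33 (SE, adjusted p = 0.000409). Cdh20 differed by -0.69 and Cdh19 by 0.03 at 96 h, and neither was called. Of 19 tested protocadherins and large cadherins 2 rose and 1 fell at 144 h, and 1 fell at 96 h. Pcdh17 rose by 1.95 and Pcdh10 by 0.94, both adhesion proteins of neurons, while Celsr1, a planar polarity cadherin, fell by 1.01 at 144 h and by 0.83 at 96 h. Fat1 differed by -0.23 and Pcdhgc5 by -0.19 at 96 h, uncalled.

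Of 18 tested genes for other catenins and adherens junction proteins 4 rose and 0 fell at 144 h (3.41% and 3.2% of all probes). At 96 h 2 rose (2.41%). The 4 were Ctnna2, the alpha-catenin of neurons (1.57), Lima1, an actin-bundling partner of alpha-catenin (1.51, adjusted p = 6.06e-07), Ctnnal1 (1.14) and Pkp4, a relative of Ctnnd1 (0.69). Ctnna2 read 8.44 ± 0.16 with 4-OHT and 6.87 ± 0.17 with vehicle at 144 h (SD, n = 2 each). It and Ctnna1 thus had differences of opposite sign at that time. Vcl, the actin-binding partner vinculin, differed by -0.47 and Afdn by 0.00 at 96 h, uncalled.

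Of 29 tested genes for other tight junction and polarity proteins 5 rose and 0 fell at 144 h (3.41% and 3.2% of all probes). At 96 h 4 rose and 1 fell (2.41% and 2.1%). Cldn11, the claudin of myelin, rose by 3.16 at 144 h, where it read 11.34 ± 0.06 with 4-OHT and 8.19 ± 1.90 with vehicle, so vehicle varied widely. Amotl2, an angiomotin scaffold, rose by 2.42, Prkcz, an atypical protein kinase C of the polarity complex, by 1.80, its partner Pard6g by 0.92 and Cldn23 by 0.58. Crb1, a polarity protein, was at least 1.02-fold lower at 96 h, where it was not detected on any 4-OHT array. Amotl1 and Jam2 differed by -0.49 and -0.78 at 96 h, uncalled, next to -0.25 for Tjp1. At 48 h 1 of the 29, Amotl2, was called, higher by 1.38 (0.649% of all probes were called higher).

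Zeb2 was the 1 of 5 tested repressors of cadherin genes that rose, by 0.68 at 96 h and 0.99 at 144 h, while Zeb1 and Twist1 differed by 0.07 and -0.17 at 144 h. Of 19 tested Wnt and beta-catenin targets and regulators 2 rose and 1 fell at 144 h (3.41% and 3.2% of all probes). At 48 and 96 h 1 rose (0.649% and 2.41%). Axin2, a feedback target of beta-catenin, fell by 1.13 at 144 h, Tcf7l2 rose by 1.04 and Sfrp1, a secreted Wnt antagonist, by 0.94, and Nkd1, another feedback inhibitor, rose by 1.32 at 48 h and 1.51 at 96 h. Pygo2 and Tcf7l1 differed by 0.06 and 0.95 at 96 h, uncalled. The median difference of this list at 144 h was 0.06, against 0.01 over all probes.

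Over the 40 arrays, which share agent, time and series, the genes outside the 9 whose main probe followed each member most closely were listed among 11078. Ctnna1 went with Vcl (Pearson r = 0.84), Smo and Pi4k2b, Cdh4 with Igfbp4 (r = 0.80), Fzd9 and Chst7, and Cdh13 with Plxnd1 (r = 0.90), Psap and Aig1. Ctnnd1 went with Srprb (r = 0.90), Gsk3a and Senp3, Cdh10 with Scrn1 (r = 0.84), B9d1 and Rgs7, and Cdh2 with Mbtps2 (r = 0.80), Srgap2 and Hnrnpa2b1. Tjp1 went with Mccc1 (r = 0.79), Snx5 and Hps5, Ctnnb1 with Atp5a1 (r = 0.73), Impa1 and Nudcd2, and Cdh11, mostly undetected, with Stbd1 (r = 0.62), Upk1a and Cyth3. These values are descriptions with no test.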

How the data were processed

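Transcript levels were measured with Illumina MouseWG-6 arrays in 40 samples, grouped by the agent and time in the labels. One deposited table holds linear bead intensity values and, beside each, a detection p-value. The second deposited table holds log2 values that the authors made with lumi and quantile normalization, per the labels. GenomeStudio and lumi are named in the submitters' processing notes, and their versions are not given in the sources used here. Of 45281 probes, 21 had fields out of step with the header and were left out.

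Intensities were background-corrected and quantile-normalized with neqc (offset 16) of limma 3.58.1 under R 4.3.3. Probes with a detection p under 0.01 on at least 3 arrays were tested. A model with 1 mean for each of the 14 groups was fitted to all 40 arrays with lmFit and eBayes with an intensity trend, with 26 residual degrees of freedom. Two-sided tests were adjusted by Benjamini-Hochberg over 21740 probes and read at 0.05. A probe whose detection p reached 0.05 on all arrays in a group has only a bound there, set by the lowest detected level on each array. The number of arrays limits the precision. No 2 arrays held identical values.

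Letters were checked as pairs by the correlation of deviations over probes. At 18, 24, 48 and 96 h each was between 0.367 and 0.783, and at 6 and 12 h some were under 0.1, down to -0.14. At 144 h, with 2 arrays in a group, the 2 pairs must give the same value, which was 0.671. On simulated data for the 96 h comparison over 21740 probes, with 50 probes of each size changed, the fit recovered 4% of differences of 0.5 on the log2 scale, 66% of 1, 92% of 1.5 and 96% of 2, with 7 false calls. The simulated arrays varied independently, with no pairing by letter and no other changed probes. These shares therefore need not hold for the real arrays. Alternatives were other scaling, background, filters, blocks, weights and the authors' log2 values, and each array left out. The exclusion of the dim array in comparisons that it does not enter was added after seeing the data. The members and gene lists were chosen with earlier results of these data known. Genes of the other lists are named where their main probe was called at 48, 96 or 144 h, at most 6 a list by size, with up to 2 uncalled genes a list by highest level. Gene symbols, positions and promoters are those of RefSeq, GRCm38.p6.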

Additional observations from a re-analysis of the deposited data

Results flagged for a closer look

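Among junction genes outside the 9, some had a 4-OHT effect that differed between early and late times, tested as the late mean difference (96 and 144 h) less the early one (18 and 24 h) (limma, adjusted over 21740 probes). The change was 1.54 for Amotl2 (2.14 late, 0.60 early, adjusted p = 9.38e-05), 1.09 for Prkcz (1.40 late, 0.31 early, adjusted p = 0.0115) and 0.96 for Pard6g (0.80 late, -0.15 early, adjusted p = 0.00642). It was 0.76 for Lima1 (1.17 late, 0.41 early, adjusted p = 0.00377) and 0.77 for Zeb2 (0.84 late, 0.06 early, adjusted p = 0.0246). None of the 9 genes passed that test, the closest being Ctnna1 with -0.34 (adjusted p = 0.39). In the F test of unequal effects among the 7 times Amotl2, Lima1 and Prkcz also passed (adjusted p = 8.92e-05, 0.000813 and 0.0253), and Pard6g and Zeb2 did not (0.164 and 0.225).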

How the results depend on the processing

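Across 40 settings that leave out an array and 13 others, 2097 of 2148 recomputed 4-OHT differences of single probes of the 9 genes kept their side of the threshold. Of the rest 13 lost and 38 gained a call, and no called difference changed sign. The 13 losses were all of Cdh4 at 96 h or Ctnna1 at 144 h, the only 2 differences called. Most of those that kept their side were uncalled in both fits, and of these 151 changed sign. The count of the 17 probes called at 96 h, 1 as reported, was 0 under median scaling, with no filter and with the arrays of that time alone, 4 with the replicate block, with it as a random effect and with the array number series as a term, 6 in the first series alone, 7 with array weights and 0 to 1 with an array left out. At 144 h, also 1, it was 0 under median scaling, no filter, array weights and that time alone, 3 with the replicate block, 2 with it as a random effect, 6 in the first series alone (1 array against 1, its spread assumed like that of the other groups) and 0 to 1 with an array left out. At 12 h array weights gave 1, at 24 h they gave 3 and the first series 1, and at 48 h 3 and 2, each against 0. For vehicle at 144 h minus 18 h, 3 as reported, median scaling and no filter gave 1 each, and 0 to 4 remained with an array left out. For vehicle at 96 h minus 18 h array weights gave 6, and leaving out an array 0 to 1. For 4-OHT at 96 h minus 18 h, 1 as reported, median scaling and no filter gave 0, array weights 8 and leaving out an array 0 to 2. The F test at any time, 0 as reported, gave 6 with the replicate block, 4 with it as a random effect, 1 with the series term, 9 with array weights and 0 to 2 with an array left out. The F test of differing effects gave 1 with either block and 4 with array weights. The vehicle F test, 2 as reported, gave 1 under median scaling and no filter, 4 with the series term, 10 with array weights and 0 to 3 with an array left out. Why these counts moved was not tested.

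Counts over all probes moved with the settings. At 96 h 979 were called as reported, 453 to 7504 under other settings and 571 to 1115 with an array left out. At 144 h it was 1438, against 0 to 4782 and 866 to 1562, at 48 h 207 against 109 to 2923, at 24 h 54 against 19 to 2895, and at 18 h 16 against 0 to 844. At 6 h 0 became up to 196 and at 12 h up to 1302. For the late minus early effect 635 became 293 to 2054, for vehicle at 144 h minus 18 h 3240 became 1574 to 4323, for vehicle at 96 h minus 18 h 1323 became 273 to 10480, and for 4-OHT at 96 h minus 18 h 2235 became 477 to 13593. The F tests gave 1315 (675 to 9152), 394 (193 to 5233) and 3041 (1301 to 12042). Array weights, whose estimate did not fully converge, gave the highest count in 10 of these 14 results. Under median scaling the median difference over all probes shifted by 0.31 at 6 h, -0.12 at 144 h, 0.17 for vehicle at 144 h minus 18 h and 0.15 for 4-OHT at 96 h minus 18 h.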
